A study of Homo sapiens with 12 samples.

Results

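The 10 genes described here are transcribed downstream of the kinase ERK, and most of their products turn the ERK pathway back down. They are the MAP kinase phosphatase genes DUSP4, DUSP5 and DUSP6, the sprouty genes SPRY1, SPRY2 and SPRY4, the sprouty-related genes SPRED1 and SPRED2, and the ETS transcription factor genes ETV4 and ETV5. They were selected as rows of the count table by their gene symbols, from a list drawn up with earlier results of these data known. All 10 were found among the 58735 genes of the count table, and all 10 were among the 17829 genes that passed the filter on low counts and were tested. RNA-Seq counts were compared in 12 libraries of A549, a human lung adenocarcinoma line. Attached control cells, attached GFI1-expressing cells, floating control cells and floating GFI1-expressing cells had 3 libraries each. Floating cells had been kept from attaching for 48 hours, and attached cells were untreated. All cells were grown in RPMI1640 medium with fetal bovine serum. GFI1, a transcriptional repressor of blood cell development, was introduced with a lentivirus whose human PGK promoter also drives GFP, and GFP-positive cells were sorted for RNA-Seq. The sources used here do not say if an empty vector was present in the control cells or if the 3 libraries of a group came from separate cultures, so p-values measure only the spread between libraries, which may be technical.

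Growth factor receptors activate Ras, Ras recruits the RAF kinases, and RAF acts through MEK on ERK1 and ERK2. Active ERK enters the nucleus and induces genes that limit its own activity. Dual-specificity phosphatases of the DUSP family remove phosphate from ERK, the products of DUSP4 and DUSP5 in the nucleus and that of DUSP6 in the cytoplasm. Sprouty proteins act between the receptor and RAF, and SPRED proteins bring the Ras GTPase-activating protein neurofibromin to the membrane. ETV4 and ETV5 are ETS factors of the PEA3 group, whose own transcription follows ERK activity. In epithelial cells, loss of attachment removes integrin signals that feed this pathway, and the study asked how GFI1 affects ERK signaling in detached cells.

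The introduced gene was checked in every library. GFI1 had 4 to 12 counts in the 6 control libraries and 5154 to 12796 counts in the 6 GFI1 libraries. As CPM, which are counts relative to the TMM-scaled total of the library, GFI1 lay at 289.9, 293.9 and 285.2 in attached GFI1 libraries and at 543.7, 704.4 and 429.5 in floating GFI1 libraries, so the floating GFI1 cells held more GFI1 RNA than the attached ones in every library. Total counts were 17014188 to 20748677 per library, and a member had between 41 and 13757 counts in a library. The 3 floating GFI1 libraries differed most among themselves, with a chi-square per gene of 4.64 to 11.2 between pairs (highest between replicates 2 and 3), beside 1.98 to 3.52 between pairs of the other groups, whereas the test below uses 1 spread shared by all groups. Floating GFI1 replicate 2 had the highest GFI1 of its group and also the highest DUSP5, DUSP6, SPRY2, SPRED1, SPRED2 and ETV4. Without it, the 8 members called with GFI1 in floating cells kept their calls, at log2 fold changes of 0.87 for DUSP6, -1.47 for SPRY1, 0.99 for SPRY2, -1.94 for SPRY4, -0.81 for SPRED1, 0.66 for SPRED2, -1.18 for ETV4 and 0.19 for ETV5. Calls that changed without it or without replicate 3 are given beside each result. Of 7 fixed epithelial and A549 markers, KRT8, KRT18, ALDH1A1 and AKR1B10 were abundant in all libraries, whereas EPCAM and KRT19 had at most 45 and 89 counts. CDH1 ranged from 66 to 2186 counts. The summed level of the 7 was 17148 to 20473 CPM in control libraries and 4091 to 6075 CPM in GFI1 libraries. The 5 blood markers summed to 32.9 to 37.0 CPM in control and 47.1 to 74.5 CPM in GFI1 libraries, nearly all of it RUNX1, with PTPRC and CD34 at 0 or 1 count. The 4 endothelial markers summed to 0.108 to 0.661 CPM in control and 3.55 to 5.51 CPM in GFI1 libraries, with KDR at 0 or 1 count and CDH5 at 1 to 89 counts. The 4 fibroblast markers summed to 8.48 to 14.1 CPM in control and 5.40 to 9.23 CPM in GFI1 libraries, with DCN at 0 counts. Of these, COL1A1 ranged from 53 to 256 and PDGFRB from 1 to 66 counts. The sums of the marker lists moved with GFI1, but single markers need not follow the sum of their list. Their part in the differences below was not tested. In bulk RNA, fewer cells that express a gene and less RNA per cell cannot be told apart.

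Upon GFI1 expression, the 4 families split in attached cells, and the SPRY, SPRED and ETV families also in floating cells. In attached cells, DUSP4, DUSP6, SPRY2, SPRED2 and ETV5 rose, whereas DUSP5, SPRY1, SPRY4, SPRED1 and ETV4 fell. Each family therefore had at least 1 member called higher and 1 called lower. For the DUSP family this rests on DUSP5, whose call was lost when libraries were scaled by their totals alone. Many of all tested genes were called in each direction (shares below), and how often other gene sets of these sizes split was not computed. The split can therefore not be read as particular to these families. The largest rise was that of DUSP6 (3.31-fold) and the largest fall that of SPRY4 (2.36-fold). With the replicate spread shared over the 4 groups, all 10 differences passed an adjusted p of 0.05 (edgeR, quasi-likelihood F test, Benjamini-Hochberg over all tested genes). The 5 members called higher stand beside 29.5% of all tested genes called higher, and the 5 called lower beside 32.8% called lower. The CPM of control and GFI1 libraries did not overlap for any of the 10, as was the case for 67.0% of all genes. The median absolute log2 fold change was 0.72 over the members and 0.40 over all genes. In floating cells, 4 members rose (DUSP6, SPRY2, SPRED2, ETV5), beside 29.3% of all genes, and 4 fell (SPRY1, SPRY4, SPRED1, ETV4), beside 31.1%. DUSP4 and DUSP5 did not pass the test there. The 8 members called in floating cells had the same direction as in attached cells. These 2 comparisons use separate libraries, which are not known to come from separate cultures. The share of all genes called alike in both states was not computed, so this agreement cannot be set beside theirs. The libraries of these 8 did not overlap, as was the case for 64.4% of all genes, and the median absolute log2 fold change was 0.85 over the members and 0.38 over all genes.

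**Figure D1:**
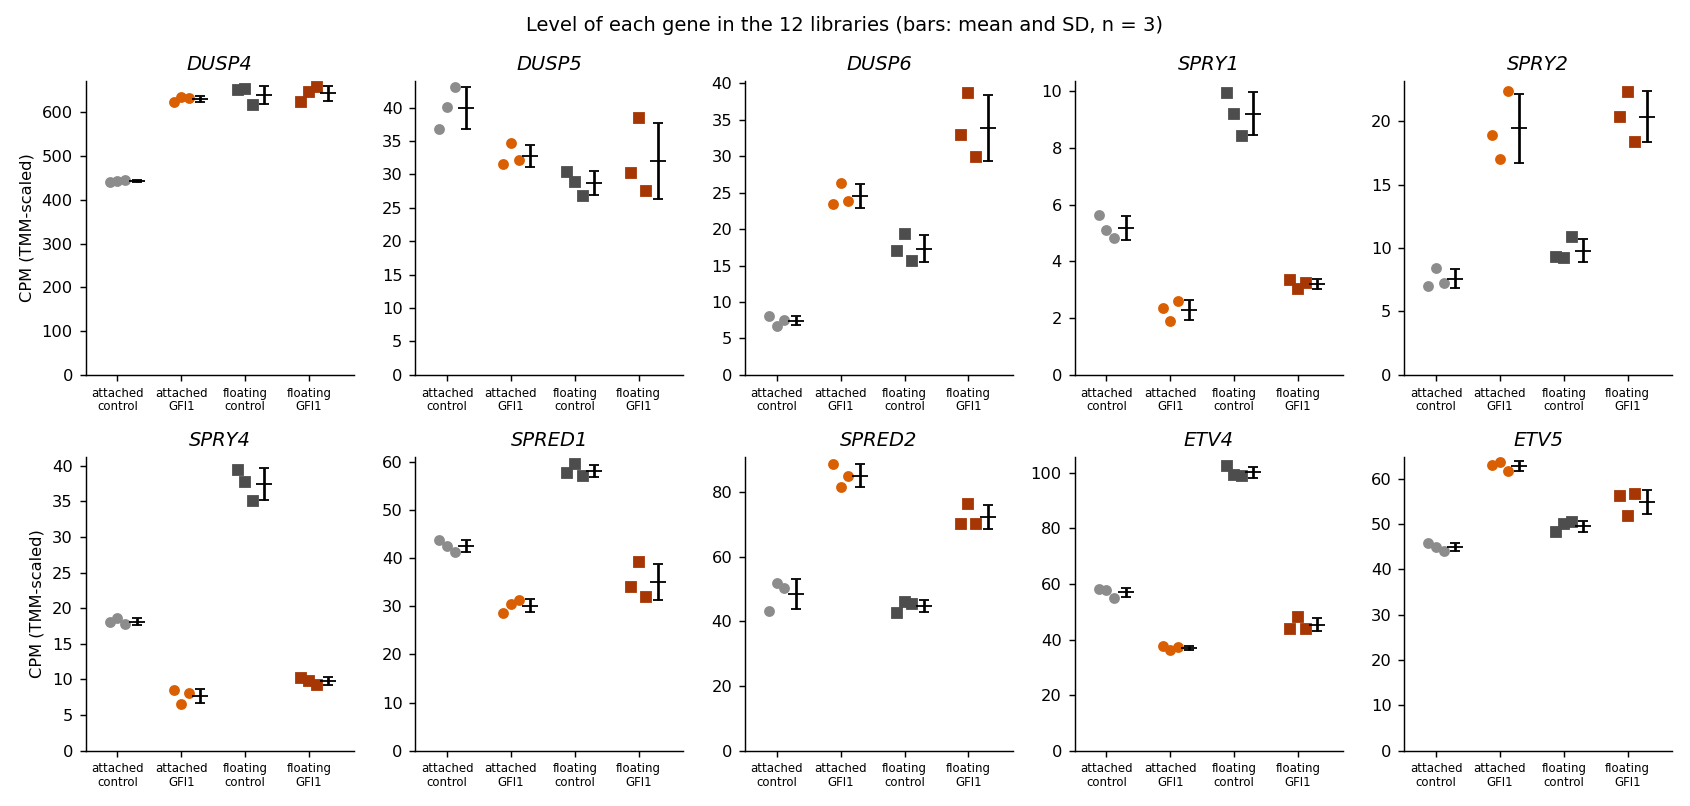
The level of each member in CPM (vertical axes, starting at 0) in the 12 libraries, with 1 point per library and the mean and SD (n = 3) beside each group. SPRY4 was highest in floating control cells (35.0 to 39.4 CPM) and lowest in attached GFI1-expressing cells (6.59 to 8.49 CPM), whereas DUSP6 was lowest in attached control cells (6.72 to 8.03 CPM) and highest in floating GFI1-expressing cells (29.8 to 38.7 CPM).

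**Figure D2:**
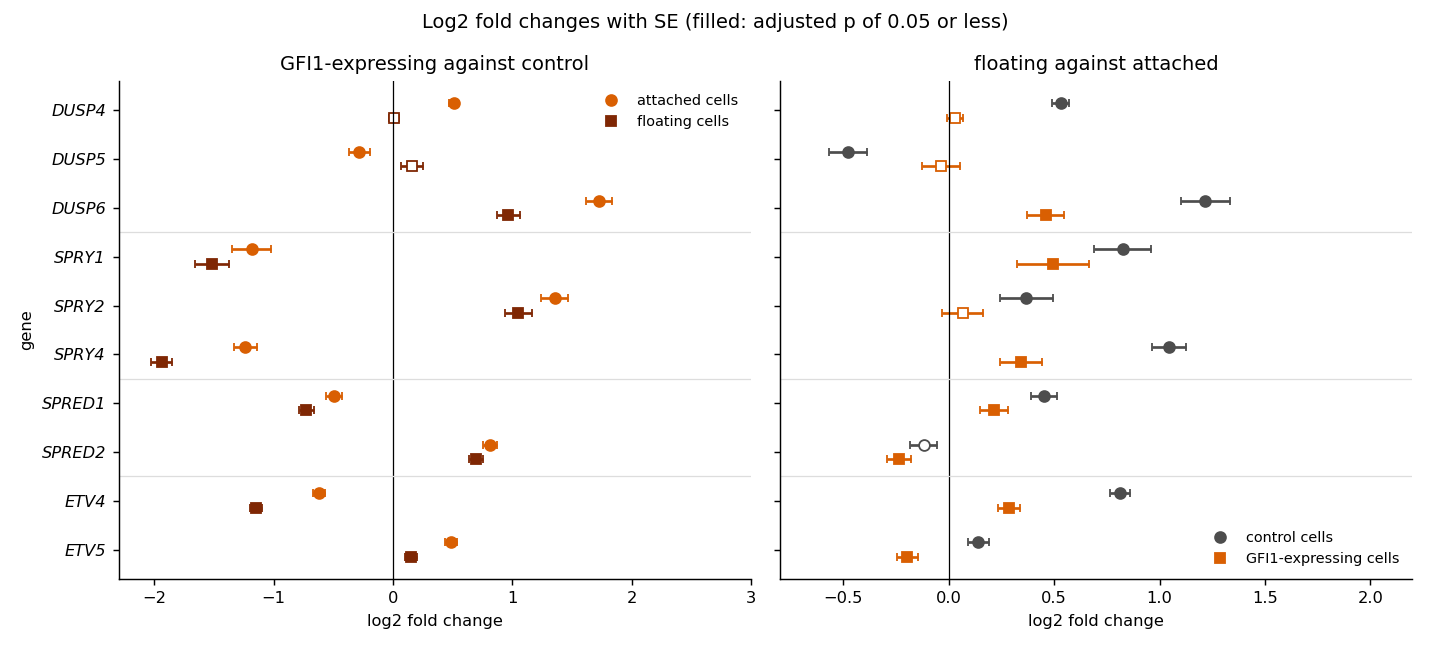
Log2 fold changes (horizontal axes) of the 10 members with their SE. The left panel shows GFI1-expressing against control cells and the right panel floating against attached cells, and filled symbols passed an adjusted p of 0.05. In the left panel SPRY2, SPRED2 and DUSP6 lie to the right of 0 and SPRY1, SPRY4, SPRED1 and ETV4 to the left in both states.

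Promoters of 2 members that rose with GFI1 in both states (DUSP6, SPRED2) and of 2 that fell (SPRY1, SPRY4) are shown, so that windows of genes of opposite direction can be read side by side. The RefSeq promoter table (GRCh38.p14) holds 10 windows for 6 of the 10 members (SPRED2, SPRY1, SPRY4, DUSP6, SPRY2 and SPRED1). Each window runs from 250 bases before to 50 bases after an annotated start and is written 5′ to 3′ on the strand of the gene. Capitals mark matches, on either strand, to the GFI1 core AATCA, the ETS core CCGGAAG, the AP-1 site TGANTCA or the TGACG core of the cyclic AMP response element. The windows lie at chr12:89352452-89352751 (DUSP6, minus strand), chr4:123396545-123396844 (SPRY1, plus strand), chr5:142324198-142324497 (SPRY4, minus strand) and chr2:65432550-65432849 (SPRED2, minus strand).
DUSP6: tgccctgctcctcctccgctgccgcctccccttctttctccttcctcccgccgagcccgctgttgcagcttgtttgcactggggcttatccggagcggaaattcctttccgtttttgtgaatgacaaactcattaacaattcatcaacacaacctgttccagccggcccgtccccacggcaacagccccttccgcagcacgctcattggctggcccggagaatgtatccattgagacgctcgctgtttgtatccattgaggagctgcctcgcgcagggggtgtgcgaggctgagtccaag
SPRY1: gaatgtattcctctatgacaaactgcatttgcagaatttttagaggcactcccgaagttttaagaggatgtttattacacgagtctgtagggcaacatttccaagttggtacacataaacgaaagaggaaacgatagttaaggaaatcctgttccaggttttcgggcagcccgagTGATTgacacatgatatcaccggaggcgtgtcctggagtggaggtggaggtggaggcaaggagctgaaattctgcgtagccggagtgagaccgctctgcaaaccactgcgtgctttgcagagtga
SPRY4: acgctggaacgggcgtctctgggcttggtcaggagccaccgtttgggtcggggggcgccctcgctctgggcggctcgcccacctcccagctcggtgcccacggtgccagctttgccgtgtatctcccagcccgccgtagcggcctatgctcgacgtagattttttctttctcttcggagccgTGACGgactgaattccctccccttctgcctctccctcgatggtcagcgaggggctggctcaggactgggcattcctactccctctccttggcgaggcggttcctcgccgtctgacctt
SPRED2: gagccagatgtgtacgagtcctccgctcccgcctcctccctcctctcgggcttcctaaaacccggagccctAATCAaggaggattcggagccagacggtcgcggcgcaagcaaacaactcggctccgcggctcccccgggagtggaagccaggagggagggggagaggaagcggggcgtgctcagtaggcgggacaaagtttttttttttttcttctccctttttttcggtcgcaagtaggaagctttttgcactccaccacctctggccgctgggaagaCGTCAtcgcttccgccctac

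The GFI1 core was found in 3 of the 10 windows, namely in 1 of the 2 SPRY1 windows, where it lies on the opposite strand 75 bases before the start, and in both SPRED2 windows. Among all 35116 promoter windows of the table, 34.5% hold it. SPRY1 fell and SPRED2 rose with GFI1, so the letters occur in windows of members of both directions. The longer GFI1 motif AAATCAC, which contains the core, was in none of the 10 windows and in 3.14% of all windows. The ETS core was in 1 window (the other SPRY1 window) and in 10.3% of all. The AP-1 site was in 1 window, that of the downstream SPRED2 start, with 2 matches of which 1 overlaps a GFI1 core, and in 7.71% of all. The TGACG core was in 3 windows (SPRY2, SPRY4, SPRED2) and in 24.6% of all. The DUSP6 window and the SPRED1 window held none of these letters. These are matches of letters and not binding sites.

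DUSP4 on chromosome 8 (29333064 to 29350668, minus strand) was the most abundant member, with a level per kilobase above the other 9 in every library of every group. Its level was 440.1, 442.4 and 444.6 CPM in attached control libraries and 622.1, 634.0 and 631.9 CPM in attached GFI1 libraries. In floating cells it was 649.6, 652.6 and 616.6 CPM in control and 623.6, 646.4 and 657.8 CPM in GFI1 libraries. Only the attached control libraries stood apart, and the other 9 libraries lay within 616.6 to 657.8 CPM. The GFI1 difference was 0.51 ± 0.04 (log2 fold change ± SE, adjusted p = 2.87e-11 in edgeR) in attached cells and 0.01 ± 0.04 (adjusted p = 0.894) in floating cells. The suspension difference was 0.53 ± 0.04 (adjusted p = 5.98e-11) in control cells and 0.03 ± 0.04 (adjusted p = 0.62) in GFI1-expressing cells.

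DUSP5 on chromosome 10 (110497838 to 110511544, plus strand), which encodes a nuclear ERK phosphatase, had the smallest GFI1 difference in attached cells. Its CPM was 36.7, 40.0 and 43.1 in attached control, 31.6, 34.7 and 32.1 in attached GFI1, 30.4, 28.9 and 26.8 in floating control, and 30.2, 38.4 and 27.5 in floating GFI1 libraries. The attached control libraries were the highest except for floating GFI1 replicate 2, which lay among them. DUSP5 fell by 0.28 ± 0.09 on the log2 scale with GFI1 in attached cells (adjusted p = 0.00642) and by 0.48 ± 0.09 with suspension in control cells (adjusted p = 0.000112). In floating cells the GFI1 difference was 0.16 ± 0.09 (adjusted p = 0.143). The fall in attached cells was -0.14 (adjusted p = 0.164) when libraries were scaled by their totals alone, and the difference in floating cells was 0.29 (adjusted p = 0.00775) with that scaling and 0.26 (adjusted p = 0.0109) without floating GFI1 replicate 3.

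DUSP6 on chromosome 12 (89347232 to 89353271, minus strand), which encodes the cytoplasmic ERK phosphatase, started low and was higher under both conditions. Its CPM was 8.03, 6.72 and 7.56 in attached control and 23.4, 26.4 and 23.8 in attached GFI1 libraries. It was 17.0, 19.3 and 15.6 CPM in floating control and 32.9, 38.7 and 29.8 CPM in floating GFI1 libraries. The 4 groups did not overlap, and their order was attached control, floating control, attached GFI1 and floating GFI1. The GFI1 difference was 1.72 ± 0.11 (adjusted p = 4.07e-13) in attached cells and 0.97 ± 0.09 (adjusted p = 1.72e-09) in floating cells. DUSP6 rose by 1.22 ± 0.11 with suspension in control cells (adjusted p = 3.68e-09) and by 0.46 ± 0.09 in GFI1-expressing cells (adjusted p = 0.000212). An antisense noncoding gene (ENSG00000274021) shares 1105 exon bases with DUSP6 in GENCODE v44 and had at most 10 counts in a library. Since the strand setting of the counting is not stated, reads from DUSP6 and from this gene cannot be told apart.

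SPRY4 on chromosome 5 (142310427 to 142326455, minus strand) and SPRY1 on chromosome 4 (123396795 to 123403760, plus strand) fell together. SPRY4 was 18.0, 18.6 and 17.7 CPM in attached control and 8.49, 6.59 and 8.05 CPM in attached GFI1 libraries. It was 39.4, 37.7 and 35.0 CPM in floating control and 10.2, 9.80 and 9.19 CPM in floating GFI1 libraries. Both GFI1 groups lay below both control groups, also when GFI1 cells floated and control cells were attached. SPRY4 fell by 1.24 ± 0.09 (adjusted p = 1.83e-11) with GFI1 in attached cells and by 1.94 ± 0.09 (adjusted p = 2.86e-16) in floating cells, or 2.36-fold and 3.84-fold. SPRY1 was the least abundant member per kilobase in every group. Its CPM was 5.65, 5.10 and 4.81 in attached control, 2.36, 1.89 and 2.60 in attached GFI1, 9.94, 9.20 and 8.43 in floating control, and 3.36, 3.03 and 3.23 in floating GFI1 libraries. Its 4 groups did not overlap and had the same order as those of SPRY4. SPRY1 fell by 1.19 ± 0.16 (adjusted p = 5.19e-07) in attached and by 1.52 ± 0.14 (adjusted p = 1.13e-09) in floating cells, from counts of 41 to 168 per library.

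SPRY2 on chromosome 13 (80335976 to 80340951, minus strand), the third sprouty gene, moved the other way. Its CPM was 7.02, 8.46 and 7.28 in attached control and 18.9, 17.1 and 22.4 in attached GFI1 libraries. It was 9.29, 9.26 and 10.9 CPM in floating control and 20.4, 22.4 and 18.4 CPM in floating GFI1 libraries. All 6 GFI1 libraries lay above all 6 control libraries. SPRY2 rose by 1.35 ± 0.11 (adjusted p = 1.2e-10) in attached and by 1.05 ± 0.11 (adjusted p = 6.99e-09) in floating cells, or 2.56-fold and 2.07-fold. Without division by gene length, the 3 sprouty genes summed to 30.9 ± 1.19 CPM (SD, n = 3) in attached control and 29.4 ± 3.77 CPM in attached GFI1-expressing cells. In floating cells the sum was 56.4 ± 2.18 CPM in control and 33.3 ± 2.27 CPM in GFI1-expressing cells. These sums weigh SPRY4 (6565 bases) more than SPRY2 (3038 bases), unlike the shares per kilobase given below. In mean CPM per kilobase, SPRY2 rose from 2.50 to 6.40 with GFI1 in attached cells. There, SPRY4 fell from 2.76 to 1.17 and SPRY1 from 1.31 to 0.576. In floating cells SPRY2 rose from 3.23 to 6.70, while SPRY4 fell from 5.70 to 1.48 and SPRY1 from 2.32 to 0.809.

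The SPRED genes showed the same kind of split. SPRED1 on chromosome 15 (38252326 to 38357249, plus strand) was 43.7, 42.6 and 41.2 CPM in attached control, 28.7, 30.6 and 31.2 CPM in attached GFI1, 57.6, 59.6 and 57.2 CPM in floating control, and 34.1, 39.3 and 31.9 CPM in floating GFI1 libraries. SPRED1 fell by 0.49 ± 0.07 (adjusted p = 3.57e-07) with GFI1 in attached and by 0.73 ± 0.06 (adjusted p = 2.05e-10) in floating cells. Every GFI1 library lay below every control library. SPRED2 on chromosome 2 (65310851 to 65432637, minus strand) was 43.1, 51.7 and 50.4 CPM in attached control, 88.7, 81.6 and 85.1 CPM in attached GFI1, 42.6, 46.0 and 45.4 CPM in floating control, and 70.0, 76.5 and 70.2 CPM in floating GFI1 libraries. SPRED2 rose by 0.81 ± 0.06 (adjusted p = 8.72e-12) in attached and by 0.69 ± 0.06 (adjusted p = 2.99e-10) in floating cells, and every GFI1 library lay above every control library.

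ETV4 on chromosome 17 (43527844 to 43579620, minus strand) and ETV5 on chromosome 3 (186046308 to 186110318, minus strand) encode closely related factors. ETV4 was 58.2, 57.7 and 55.0 CPM in attached control and 37.7, 36.3 and 37.2 CPM in attached GFI1 libraries. It was 102.5, 99.3 and 98.8 CPM in floating control and 43.9, 47.9 and 43.9 CPM in floating GFI1 libraries, so that GFI1-expressing cells in suspension stayed below attached control cells. ETV4 fell by 0.62 ± 0.05 (adjusted p = 8.33e-11) with GFI1 in attached and by 1.15 ± 0.05 (adjusted p = 1.1e-16) in floating cells. ETV5 was 45.9, 45.0 and 44.0 CPM in attached control and 63.2, 63.7 and 61.6 CPM in attached GFI1 libraries. It was 48.2, 49.9 and 50.5 CPM in floating control and 56.2, 51.7 and 56.6 CPM in floating GFI1 libraries, which did not overlap but lay close. ETV5 rose by 0.48 ± 0.05 (adjusted p = 5.29e-09) in attached cells and by 0.15 ± 0.05 (adjusted p = 0.0141) in floating cells. The second difference did not pass without floating control replicate 1 (0.13, adjusted p = 0.066), without floating GFI1 replicate 3 (0.12, adjusted p = 0.0664) or without a filter on low counts (0.14, adjusted p = 0.0561). In GENCODE v44, ETV4 shares 68 exon bases with DHX8 on the opposite strand (at most 1911 counts in a library) and ETV5 shares 164 with DGKG on the same strand (at most 540), so reads in these bases cannot be assigned with certainty.

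These opposite movements shifted the make-up of the families. By mean CPM per kilobase, the leading gene differed between control and GFI1-expressing cells for SPRY in both states and for ETV in attached cells. The measure used was the share of each gene in the CPM per kilobase of gene length, summed over the members of its family. A share within a library does not depend on how libraries are scaled, but it does depend on the gene length used. Without division by gene length, mean ETV5 exceeded ETV4 in attached (62.8 and 37.1 CPM) and also in floating GFI1-expressing cells (54.8 and 45.3 CPM). In attached control cells, SPRY4 led SPRY2 per kilobase only in the mean, as their libraries overlapped. SPRY2 made up 38.0% ± 2.34 (SD, n = 3) of the sprouty level in attached control and 78.5% ± 1.58 in attached GFI1-expressing cells. In floating cells its share was 28.7% ± 3.20 in control and 74.4% ± 1.82 in GFI1-expressing cells. SPRY4 held 42.1% ± 0.902 in attached control and 14.5% ± 1.38 in attached GFI1-expressing cells, and 50.6% ± 2.01 and 16.5% ± 0.872 in the floating ones. SPRED2 was the larger of the SPRED genes in every group, and its share was 64.5% ± 2.82 and 81.9% ± 1.16 in attached control and GFI1-expressing cells and 55.2% ± 0.899 and 76.8% ± 1.09 in floating ones. ETV4 held 67.1% ± 0.292 of the ETV level in attached control and 48.7% ± 0.761 in attached GFI1-expressing cells, where ETV5 was the more abundant of the pair. In floating cells ETV4 held 76.5% ± 0.789 in control and 57.0% ± 2.46 in GFI1-expressing cells. Each of these shares did not overlap between control and GFI1 libraries, and the two-sided exact permutation test gave p = 0.1 for each, the smallest value that 3 against 3 libraries allow. The shares restate the CPM differences given above, so this separation was to be foreseen and is no further support for them. In the SPRED and ETV pairs, each share is fixed by that of the partner. DUSP4 remained at 78.3% to 85.7% of the DUSP level in the 4 group means.

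**Figure D3:**
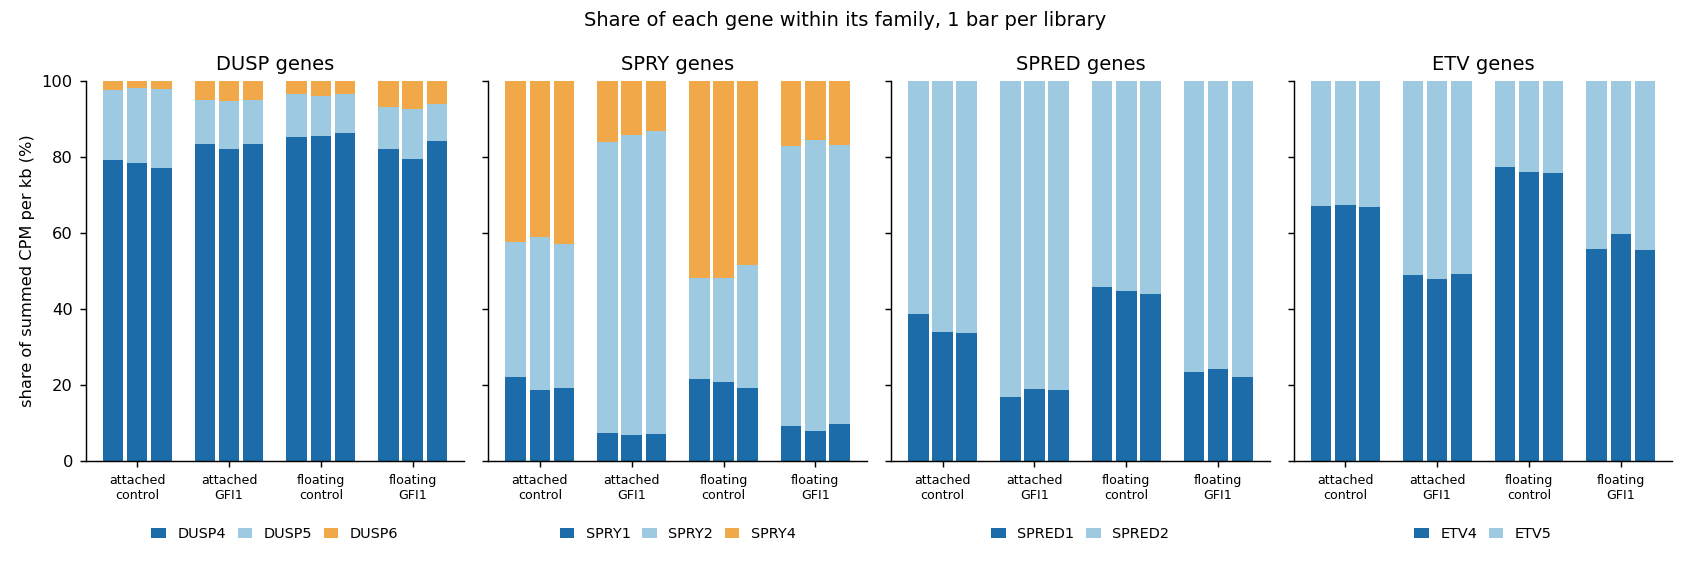
Share of each gene in the summed CPM per kilobase of its family (vertical axis, percent), with 1 stacked bar per library in the 4 groups. The SPRY2 segment makes up 26.4% to 40.3% of the bar in control libraries and 73.2% to 79.7% in GFI1 libraries, while DUSP4 makes up 77.2% to 86.2% of the DUSP bars throughout.

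Ordered by CPM per kilobase in attached control cells, DUSP4 (61.0 ± 0.307, SD, n = 3) was followed by ETV4 (15.8 ± 0.470), DUSP5 (15.3 ± 1.21), SPRED2 (9.40 ± 0.902), ETV5 (7.75 ± 0.163), SPRED1 (5.15 ± 0.152), SPRY4 (2.76 ± 0.069), SPRY2 (2.50 ± 0.253), DUSP6 (1.61 ± 0.143) and SPRY1 (1.31 ± 0.107). The libraries of ETV4 and DUSP5 overlapped, as did those of SPRY4 and SPRY2. In floating GFI1-expressing cells the order was DUSP4 (88.5 ± 2.40), SPRED2 (14.0 ± 0.715), ETV4 (12.5 ± 0.648), DUSP5 (12.3 ± 2.18), ETV5 (9.45 ± 0.464), DUSP6 (7.30 ± 0.970), SPRY2 (6.70 ± 0.654), SPRED1 (4.25 ± 0.459), SPRY4 (1.48 ± 0.0807) and SPRY1 (0.809 ± 0.0421). There, the libraries of DUSP5 overlapped those of ETV4 and of SPRED2, and those of DUSP6 overlapped those of SPRY2. DUSP6 and SPRY2 thus stood below SPRY4 in the first group and above SPRED1 in the second.

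Suspension for 48 hours raised most of these genes in control cells. DUSP4, DUSP6, SPRY1, SPRY2, SPRY4, SPRED1, ETV4 and ETV5 rose, DUSP5 fell, and SPRED2 was at -0.12 ± 0.06 on the log2 scale (adjusted p = 0.144). The 8 called higher stand beside 19.6% of all tested genes called higher and the 1 called lower beside 20.6%. The CPM of 9 members did not overlap between attached and floating control libraries, as was the case for 49.9% of all genes, and the median log2 fold change was 0.49 over the members and 0.01 over all genes. The rises other than those of DUSP4 and DUSP6 were 0.82 ± 0.13 for SPRY1 (adjusted p = 2e-05), 0.37 ± 0.13 for SPRY2 (adjusted p = 0.0212), 1.05 ± 0.08 for SPRY4 (adjusted p = 8.43e-11), 0.45 ± 0.06 for SPRED1 (adjusted p = 1.69e-06), 0.81 ± 0.05 for ETV4 (adjusted p = 6.99e-13) and 0.14 ± 0.05 for ETV5 (adjusted p = 0.0307). Without division by gene length, ETV4 and ETV5 summed to 101.9 ± 2.59 CPM in attached and 149.8 ± 0.854 CPM in floating control cells. The call of SPRY2 was lost without attached control replicate 1 (0.31, adjusted p = 0.0894), attached control replicate 3 (0.34, adjusted p = 0.0736) or floating control replicate 3 (0.29, adjusted p = 0.123), and SPRED2 was called lower without attached control replicate 1 (-0.20, adjusted p = 0.0132). The call of ETV5 was lost in DESeq2 (0.15, adjusted p = 0.055), without a filter on low counts (0.13, adjusted p = 0.15), and without attached control replicate 2 (0.14, adjusted p = 0.0724), attached control replicate 3 (0.12, adjusted p = 0.112), floating control replicate 2 (0.13, adjusted p = 0.0818) or floating control replicate 3 (0.13, adjusted p = 0.107).

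In GFI1-expressing cells, 5 members rose with suspension, beside 15.0% of all genes, and 2 fell, beside 16.3%. The rises were 0.46 ± 0.09 for DUSP6 (adjusted p = 0.000212), 0.49 ± 0.17 for SPRY1 (adjusted p = 0.0288), 0.34 ± 0.10 for SPRY4 (adjusted p = 0.0113), 0.22 ± 0.07 for SPRED1 (adjusted p = 0.0139) and 0.29 ± 0.05 for ETV4 (adjusted p = 0.000106). SPRED2 fell by 0.24 ± 0.06 (adjusted p = 0.00219) and ETV5 by 0.20 ± 0.05 (adjusted p = 0.00281). DUSP4, DUSP5 and SPRY2 did not pass the test, with log2 fold changes of 0.03 ± 0.04, -0.04 ± 0.09 and 0.07 ± 0.10. The CPM of the 7 called members did not overlap, as was the case for 41.4% of all genes, and the median log2 fold change was 0.14 over the members and 0.00 over all genes. Without division by gene length, ETV4 and ETV5 summed to 99.9 ± 0.989 CPM in attached and 100.1 ± 0.387 CPM in floating GFI1-expressing cells. In this sum the rise of ETV4 was offset by the fall of ETV5. The call of SPRY1 was lost in DESeq2 (0.49, adjusted p = 0.06), without a filter on low counts (0.50, adjusted p = 0.0599), with only the compared groups in the fit (0.49, adjusted p = 0.0657), and without attached GFI1 replicate 2 (0.37, adjusted p = 0.147), floating GFI1 replicate 1 (0.45, adjusted p = 0.0903) or floating GFI1 replicate 3 (0.49, adjusted p = 0.0592). The call of SPRY4 was lost without attached GFI1 replicate 2 (0.24, adjusted p = 0.0936) or floating GFI1 replicate 1 (0.30, adjusted p = 0.0599), that of SPRED1 without attached GFI1 replicate 1 (0.18, adjusted p = 0.0652) or floating GFI1 replicate 2 (0.11, adjusted p = 0.226), and DUSP5 was called lower without floating GFI1 replicate 2 (-0.20, adjusted p = 0.0486).

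Whether the GFI1 difference itself changed with attachment was tested as the interaction of GFI1 and suspension, which equals the suspension difference in GFI1-expressing cells minus that in control cells. DUSP4, DUSP6, SPRY4, ETV4 and ETV5 were called with a negative interaction, beside 6.01% of all genes, and DUSP5 with a positive one, beside 4.76%. DUSP4 was called higher with GFI1 in attached cells and not in floating cells, with an interaction of -0.50 ± 0.06 (adjusted p = 7.28e-07). DUSP6 rose less with GFI1 in floating than in attached cells, by -0.76 ± 0.15 (adjusted p = 0.00081). For SPRY4 and ETV4, GFI1 lowered the level more in floating cells, by -0.70 ± 0.13 (adjusted p = 0.00053) and -0.53 ± 0.07 (adjusted p = 9.97e-06). For ETV5 the rise was smaller in floating cells, by -0.34 ± 0.07 (adjusted p = 0.00205). The interaction was not called for SPRY1 (-0.33 ± 0.22, adjusted p = 0.405), SPRY2 (-0.30 ± 0.16, adjusted p = 0.268), SPRED1 (-0.24 ± 0.09, adjusted p = 0.103) or SPRED2 (-0.12 ± 0.09, adjusted p = 0.455), which does not show that attachment made no difference to them. The positive value of DUSP5 (0.44 ± 0.13, adjusted p = 0.0234) was not called without attached control replicate 3 (0.39, adjusted p = 0.0789), attached GFI1 replicate 1 (0.42, adjusted p = 0.0502), floating control replicate 3 (0.39, adjusted p = 0.0727) or floating GFI1 replicate 2 (0.27, adjusted p = 0.0884), and SPRED1 was called without floating GFI1 replicate 2 (-0.34, adjusted p = 0.00657). The higher GFI1 level of floating GFI1 libraries moves with all of these values, and its part was not tested.

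Other genes of the pathway were described from fixed lists, beside the background shares given above for all genes. Of the remaining family members, ETV1, the third PEA3 factor, fell by 3.60 ± 0.19 on the log2 scale in attached (adjusted p = 2.09e-14) and by 4.66 ± 0.20 in floating cells (adjusted p = 1.32e-16), from means of 9.63 and 15.0 CPM in control to 0.78 and 0.584 CPM in GFI1-expressing cells. SPRED3 rose by 0.45 ± 0.15 (adjusted p = 0.0139) and 0.74 ± 0.13 (adjusted p = 3.49e-05). SPRY3 rose by 0.91 ± 0.26 in attached cells (adjusted p = 0.00364) and was at -0.40 ± 0.22 in floating cells (adjusted p = 0.126). All 3 rose with suspension in control cells.

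Of 6 tested genes of other MAP kinase phosphatases, 4 rose and 1 fell with GFI1 in each state (DUSP2, the seventh of the list, was too low to test). DUSP1, an immediate early phosphatase that acts on p38 and JNK as well as ERK, rose by 1.17 ± 0.06 in attached (adjusted p = 2.89e-15) and by 1.11 ± 0.06 in floating cells (adjusted p = 1.01e-14). DUSP8 rose by 1.19 ± 0.11 (adjusted p = 3.21e-10) and 1.74 ± 0.14 (adjusted p = 3.33e-11). DUSP16, which like DUSP8 acts on JNK and p38, fell by 0.81 ± 0.06 (adjusted p = 4.14e-11) and 1.17 ± 0.07 (adjusted p = 4.09e-14). DUSP7, a cytoplasmic ERK phosphatase related to DUSP6, rose by 0.55 ± 0.10 in attached cells (adjusted p = 2.98e-05) and by 0.39 ± 0.10 in floating cells (adjusted p = 0.00173). DUSP9, its close relative, had a log2 fold change of -0.20 ± 0.20 (adjusted p = 0.412) in attached cells and rose by 0.81 ± 0.18 in floating cells (adjusted p = 0.000482). The median log2 fold change of the list was 0.45 in attached and 0.60 in floating cells, beside -0.01 and 0.01 over all genes. With suspension, 0 of the 6 rose and 1 fell in control cells, and 1 rose and 4 fell in GFI1-expressing cells.

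Of 20 genes of the Ras-ERK cascade, 11 rose and 8 fell with GFI1 in attached cells, and 12 rose and 5 fell in floating cells, with medians of 0.26 and 0.29. KSR1, a scaffold that holds RAF, MEK and ERK together, rose by 1.41 ± 0.05 (adjusted p = 1.49e-17) in attached and by 1.49 ± 0.05 (adjusted p = 6.41e-18) in floating cells. The adaptor gene SHC1 rose by 0.77 ± 0.05 (adjusted p = 6.21e-13) and 0.86 ± 0.05 (adjusted p = 7.1e-14). RASA1, a Ras GTPase-activating protein that turns Ras off, rose by 0.82 ± 0.06 (adjusted p = 5.6e-12) and 0.95 ± 0.06 (adjusted p = 3.6e-13). HRAS fell by 0.56 ± 0.06 (adjusted p = 2.54e-09) and 0.29 ± 0.06 (adjusted p = 9.25e-05). MAP2K1, which encodes MEK1, fell by 0.46 ± 0.05 (adjusted p = 2.65e-09) and 0.39 ± 0.05 (adjusted p = 4.17e-08). MAPK3, which encodes ERK1, fell by 0.45 ± 0.08 (adjusted p = 1.98e-05) and 0.42 ± 0.08 (adjusted p = 4.83e-05). With suspension, 4 rose and 6 fell in control cells and 4 rose and 2 fell in GFI1-expressing cells. RNA levels of these genes do not measure the phosphorylation of ERK.

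Of 10 other genes that ERK is known to induce, 3 rose and 5 fell with GFI1 in each state, with medians of -0.17 and -0.19. EGR1, an immediate early transcription factor, rose by 2.28 ± 0.22 (adjusted p = 1.15e-09) in attached and by 1.83 ± 0.15 (adjusted p = 4.44e-11) in floating cells. CCND1, the gene of cyclin D1, rose by 0.60 ± 0.04 (adjusted p = 7.09e-13) and 0.58 ± 0.04 (adjusted p = 2.29e-12), and the cytokine gene LIF rose by 0.23 ± 0.06 (adjusted p = 0.00384) and 0.21 ± 0.06 (adjusted p = 0.00647). In floating cells, however, LIF overlapped between control (116.0 ± 6.98 CPM, SD) and GFI1 libraries (134.4 ± 18.4 CPM). A gene among the 5 that fell overlapped there as well. MYC fell, with log2 fold changes of -1.18 ± 0.05 (adjusted p = 1.34e-16) and -1.59 ± 0.05 (adjusted p = 1.17e-18). PHLDA1 fell by 0.55 ± 0.05 (adjusted p = 3.22e-09) and 0.73 ± 0.05 (adjusted p = 9.92e-12), and IER3, an immediate early survival gene, by 0.42 ± 0.08 (adjusted p = 5.43e-05) and 0.86 ± 0.08 (adjusted p = 3.6e-10). As among the feedback genes, both directions were present. With suspension, 4 rose and 4 fell in control cells, and 3 rose and 4 fell in GFI1-expressing cells.

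Of 8 tested genes of the Rap1 route, 4 rose with GFI1 in each state, and 2 fell in attached and 1 in floating cells (RASGRP3 was too low to test). RASGRP2, the Rap1 exchange factor that the study placed upstream of ERK, was at 1.61, 1.19 and 0.917 CPM in attached control and at 27.5, 24.6 and 24.3 CPM in attached GFI1 libraries. In floating cells it was at 1.48, 0.481 and 1.13 CPM in control and at 18.6, 19.1 and 17.0 CPM in GFI1 libraries. It rose by 4.36 ± 0.16 (adjusted p = 9.56e-18) and 4.13 ± 0.18 (adjusted p = 1.62e-16). RAP1GAP, whose product turns Rap1 off, rose by 2.89 ± 0.05 (adjusted p = 9.45e-25) and 1.94 ± 0.05 (adjusted p = 6.41e-22), and the exchange factor gene RAPGEF2 rose by 0.90 ± 0.06 (adjusted p = 3.61e-12) and 0.82 ± 0.06 (adjusted p = 2.53e-11). RAP1B fell by 0.42 ± 0.04 (adjusted p = 2.53e-09) and 0.49 ± 0.04 (adjusted p = 1.61e-10), and RAP1A by 0.15 ± 0.06 in attached cells (adjusted p = 0.0242). The medians of the list were 0.32 and 0.39. With suspension, 2 rose and 1 fell in control cells, and 1 rose and 1 fell in GFI1-expressing cells.

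**Figure D4:**
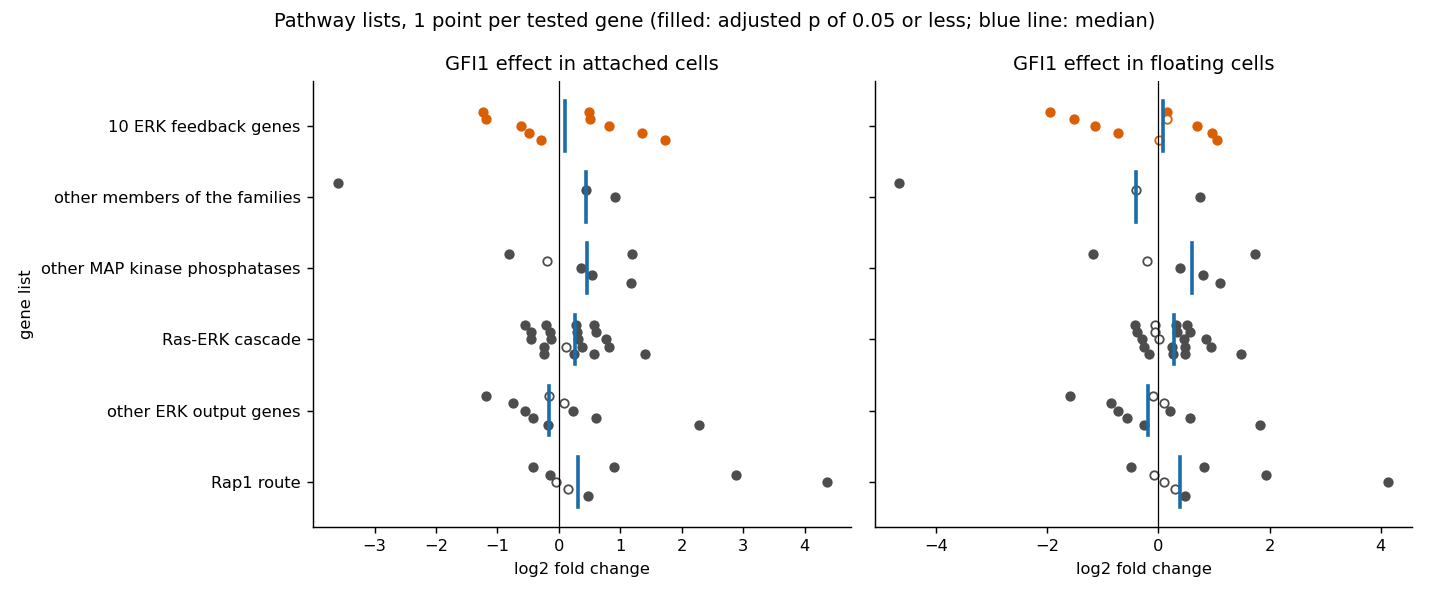
Log2 fold changes with GFI1 (horizontal axes) of the 10 feedback genes and of the 5 fixed lists, in attached (left) and floating cells (right), with 1 point per tested gene, filled where the adjusted p was 0.05 or less, and a blue line at the median. The points of the feedback genes lie on both sides of 0, with medians of 0.10 and 0.08, and ETV1 (-3.60 and -4.66) and RASGRP2 (4.36 and 4.13) lie farthest out.

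Likeness over the 12 libraries was described by the root mean square (RMS) difference of log2 CPM, each gene centred on its own mean, among 13760 other protein-coding genes. SPRY1 and SPRY4 were closer to each other than to any other member (RMS difference 0.177), and 7 genes were closer to SPRY1 and 6 to SPRY4. The closest genes were QPCT (0.112) and ALDH2 (0.128) for SPRY1 and CACNA1D (0.124) and TESC (0.140) for SPRY4. For DUSP6 they were SLC16A3 (0.149) and MXD1 (0.152), and its closest member was SPRY2 (0.385), with 265 genes closer. For SPRY2 they were IRF2 (0.137) and CARD19 (0.138), and for SPRED2 DENND3 (0.0856) and SSH1 (0.0888). ETV4 was closest to LPGAT1 (0.0825) and HSD17B11 (0.0889) and SPRED1 to PLOD1 (0.0711) and ABHD17C (0.0713). ETV4 and SPRED1 were each other's closest member (0.195), with 49 genes closer to ETV4 and 335 to SPRED1. DUSP4 was closest to MYRF (0.0545) and SLC9A3R2 (0.0604), ETV5 to LYPLAL1 (0.0460) and SLC38A9 (0.0511), and DUSP5 to CELSR1 (0.0949) and ZNF319 (0.105). DUSP4 and ETV5 were the closest pair of members (0.170), with 813 genes closer to DUSP4 and 1688 to ETV5. For DUSP5, 6753 genes were closer than any other member. The libraries are shared by all genes, and the differences of the 4 group means dominate this measure.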

How the data were processed

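RNA was sequenced from 12 A549 libraries in 4 groups of 3, taken from the labels. The deposited values are raw read counts per gene, which the authors obtained from poly-A-selected RNA on an Illumina NovaSeq system. The study's methods name Hisat2, featureCounts and GRCh38, whereas the submitters' processing notes name Bowtie2, HTSeq and hg38. Which pair made the table, the annotation release and the strand setting are not given in the sources used here. Positions are those of the table, and overlapping genes come from GENCODE v44, whose gene ends were identical for 4 of the 10 members.

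The analysis used edgeR 4.0.16 under R 4.3.3. After filterByExpr (minimum count 10, minimum total count 15), libraries were scaled by TMM, and 1 quasi-likelihood model of 4 group means was fitted to all libraries (biological coefficient of variation 4.86%). Two-sided p-values received Benjamini-Hochberg adjustment over all 17829 tested genes in each of 5 contrasts, and genes were called at 0.05 without a fold threshold. SEs were derived from the log2 fold change and its F statistic. The procedure was run on simulated counts in which few genes changed and each gene had the same spread in every group. That simulation does not cover the larger spread of the floating GFI1 libraries or the large share of genes called here. CPM are TMM-scaled, and log2 CPM for likeness used a prior count of 2. DESeq2 1.42.0 and the other settings of the closing section were alternatives. All 10 members are named, with GFI1, RASGRP2, at most 3 called genes of lowest adjusted p per list, direction and GFI1 comparison, and the 2 protein-coding genes closest to each member. The members and lists were chosen with earlier results of these data known.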

Additional observations from a re-analysis of the deposited data

Results flagged for a closer look

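The GFI1 difference changed with attachment for 6 of the 10 genes by the interaction test in edgeR (log2, floating minus attached), 1 of them higher and 5 lower, beside 4.76% and 6.01% of all tested genes. The values were -0.50 for DUSP4, 0.44 for DUSP5, -0.76 for DUSP6, -0.70 for SPRY4, -0.53 for ETV4 and -0.34 for ETV5. For DUSP4, DUSP6, SPRY4 and ETV4 the call held with every library left out in turn and under all other settings tried except the added fold threshold, as it did for ETV5. That of DUSP5 depended on single libraries, as given beside it.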

How the results depend on the processing

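For the log2 fold changes of the 10 genes in 5 comparisons, 800 values under alternative settings were computed. Of these, 761 kept direction and side of the threshold, 27 lost the call, 6 gained it and 6 changed sign. The 6 changes of sign were of uncalled values with 1 library left out. These ranged from -0.0205 to 0.0380 for DUSP4 with GFI1 in floating cells (lowest without floating control replicate 3, and -0.0105 without floating GFI1 replicate 3). For DUSP5 with suspension in GFI1-expressing cells the range was -0.20 to 0.07 (0.0108 without attached GFI1 replicate 2 and 0.065 without floating GFI1 replicate 3), and for SPRY2 it was -0.02 to 0.18 (-0.0203 without attached GFI1 replicate 2 and -0.0202 without floating GFI1 replicate 2). Adding a fold change of at least 2 to the call left 4, 4, 2, 0 and 0 of the 10 genes, and 3247, 3078, 909, 500 and 241 of all genes, in the GFI1 comparisons (attached, floating), the suspension comparisons (control, GFI1) and the interaction. Scaling by library totals alone moved the median log2 fold change of all genes with GFI1 to 0.14 in both states, with 6994 of 11375 and 6834 of 11144 called genes higher, beside 5258 of 11102 and 5223 of 10770 with TMM, and DUSP4 in floating cells was then called (0.14, adjusted p = 0.00309). Same-numbered libraries of different groups did not deviate together (18 correlations, -0.031 to 0.031), so the numbers were not taken to pair them. With the replicate number as a block, 10, 8, 9, 7 and 6 of the 10 genes and 11053, 10712, 7111, 5546 and 1903 of all genes were called, and no call of the 10 genes changed. SPRY1, at 41 to 168 counts, was the member with the fewest counts.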
